A study of Rattus norvegicus with 32 samples.

Results

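Epithelial cell cultures of thymic origin that had passed through skin grafts for a second time were compared with hair follicle cultures that had been grafted 1 time. The comparison holds 6 of the 16 cultures in the series, and 12 of its 32 arrays. The groups come from the labels, and the comparison was chosen with earlier results of these data known. The 4 thymic epithelial cell (TEC) cultures after a second transplantation were Clone_287 and Clone_347 from embryonic day 16 (E16) thymus, Clone_194 from P1 thymus and the bulk culture Clone_354 from 4-month-old rats. The 2 hair follicle (HF) cultures after a first transplantation were YR219P5_RC, a bulk culture, and Clone_54, both labelled P5. Before grafting, 4 thymic cultures (1 E16 clone, 1 P1 clone, and a bulk culture and a clone from 4-month-old rats) and 2 P5 follicle cultures (a bulk culture and a clone) were measured. A further 4 thymic cultures had been grafted 1 time: the E16 clones Clone_217 and Clone_218, the P1 clone Clone_57 and the bulk culture Clone_907 from 4-month-old rats. All cells, controls included, came from Sprague-Dawley rats of the green line SDTgN (act-EGFP), which carry a constitutively expressed enhanced green fluorescent protein transgene, and all were grown on irradiated 3T3-J2 mouse feeder cells. Grafted cells were recovered by dissecting GFP-positive hair follicles out of skin grafts on nude mice, which lack a working Foxn1 and so lack a thymus and a normal coat. A clone is the progeny of a single cell and a bulk culture is a mixture, so each thymic donor stage after the second transplantation rests on 1 or 2 cultures. Thymic and follicle cultures also differ in donor stage and in the number of grafts, and these cannot be told apart from tissue of origin here.

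Thymic epithelium forms from endoderm of the pharyngeal pouches under transcription factors such as Pax9, Pax1, Isl1 and Foxn1, and supports the maturation of T cells. Hair follicle epithelium forms from ectoderm and is maintained by stem cells that express Lhx2 and Sox9. Cells that express Krt5, Krt14 and Tp63 occur in both epithelia. The comparison asks which transcripts still separate thymic from follicle cultures after thymic cells have been recovered from follicles a second time, and the ungrafted cultures give the starting difference.

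RNA was read on Affymetrix rat gene arrays, and all levels below are log2 signals averaged over the 2 arrays of a culture. Of the probe sets, 15316 named exactly 1 gene and were tested. Across the 6 cultures the arrays of a culture correlated at 0.9889 to 0.9977. Array 1 of YR219P5_RC stood apart, with a median signal of 5.782 against 5.314 to 5.554 on the other arrays of these cultures. The median difference over all probe sets, twice-grafted thymic minus grafted follicle, was -0.11, and -0.07 after each array was centred on its median. P-values measure the spread between cultures, and nothing in the labels says how many animals they came from. In such bulk RNA, fewer cells of a type and less RNA per cell cannot be told apart.

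The cultures were checked against markers of their labelled cell types. Krt14, the keratin of basal epithelial cells, lay at 12.95 to 13.31 in the twice-grafted thymic cultures and at 13.26 and 13.28 in the follicle cultures. Of the thymic function genes, Psmb11, a proteasome subunit of cortical thymic epithelium, was at 3.98 to 4.29 in the thymic and 4.52 and 4.14 in the follicle cultures. Ccl25, a chemokine for T cell progenitors, was at 3.25 to 3.65 in the thymic and 3.73 and 3.41 in the follicle cultures. Background was not measured, and signals under 4 are treated here as possibly no more than background. Psmb11 and Ccl25 were thus at or near the lower end of the scale in all 6 cultures. Other thymic function genes were not all that low. Over that whole list, 19 probe sets, the mean level was 5.83 to 6.27 in the thymic and 5.69 to 5.85 in the follicle cultures. Of the 19, 2 lay below 4 in all 4 thymic cultures. Lum, a fibroblast proteoglycan, was at 2.48 to 2.87 in thymic and 2.60 and 2.54 in follicle cultures, and the leukocyte genes Ptprc, Cd3e and Cd4 lay below 4 in every one of the 6 cultures. Other markers of these cell types were not that low. Vim and Cd68 lay above 4 in all 6 cultures, and their values are given in the last section. The mean level of the fibroblast and feeder list, 22 probe sets, was 5.97 to 6.11 in the thymic and 6.04 to 6.22 in the follicle cultures. Of these 22, 3 lay below 4 in all 4 thymic cultures. The corresponding means of the haematopoietic list, 14 probe sets, were 4.00 to 4.39 and 4.11 to 4.26, and 7 of the 14 lay below 4 in all 4 thymic cultures.

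After grafting, 7 probe sets of 15316 (0.0457%) passed an adjusted p of 0.05 in limma's moderated test. Of these, 5 were higher in the twice-grafted thymic cultures (0.0326%), namely Hoxa5, Isl1, Steap2, RT1-T24-1 and Atp7a, and 2 were lower (0.0131%), namely Gng10 and Ypel4. At an unadjusted p under 0.05 there were 922 higher and 2295 lower. Ranges that did not overlap between the 4 thymic and 2 follicle cultures were more common: 1428 probe sets were higher in all 4 thymic cultures (9.32%) and 2347 were lower (15.3%). Among probe sets with a mean signal of at least 5 these counts were 1331 and 1328, while below that level they were 97 and 1019. With YR219P5_RC given by its array 2 alone, 1351 probe sets were higher and 1354 lower at an unadjusted p under 0.05, and 14 passed the threshold, the same 7 among them.

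**Figure D1:**
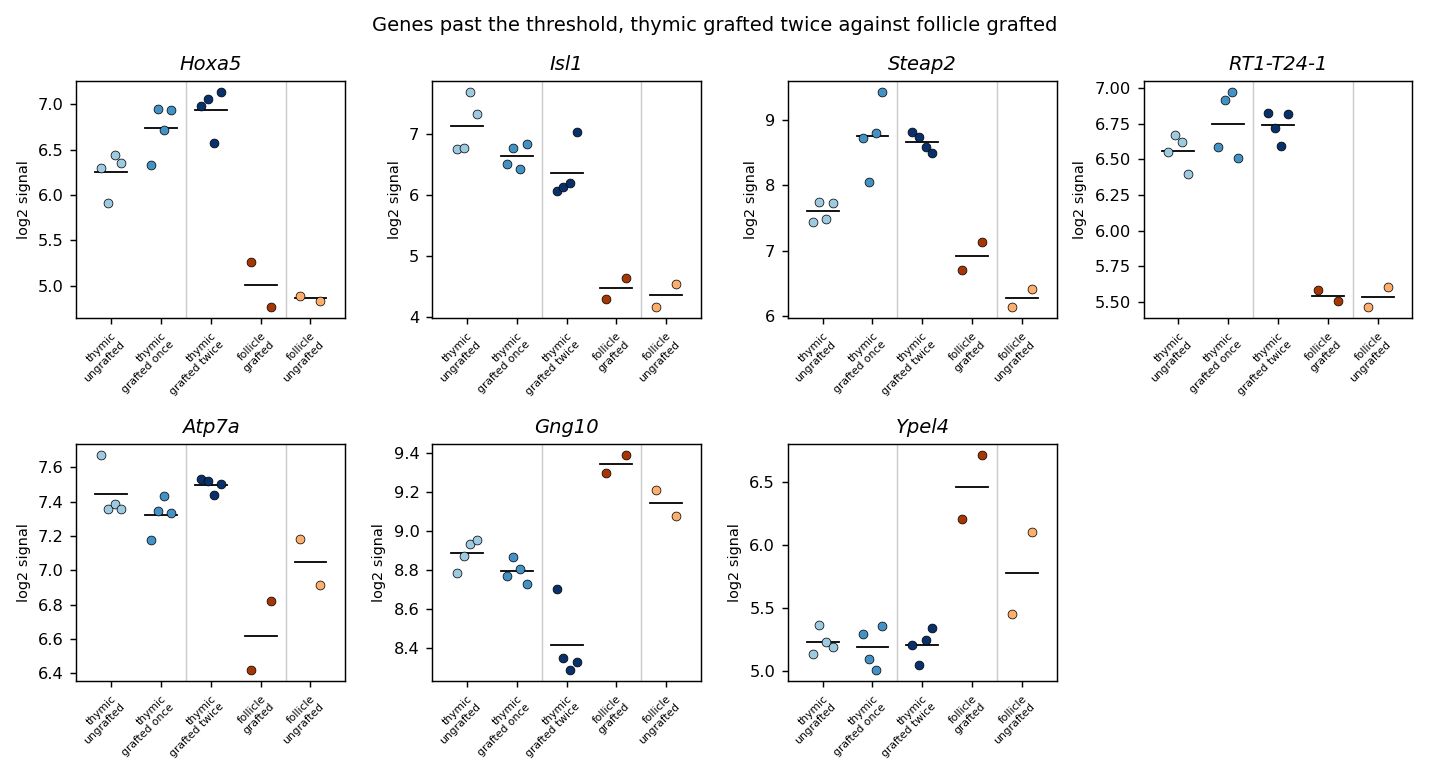
Log2 signal of the 7 genes past the threshold, 1 panel per gene, with 1 point per culture (mean of 2 arrays) and a black line at each group mean, for thymic cultures ungrafted, grafted 1 time and grafted 2 times, then follicle cultures grafted and ungrafted. In each panel the 4 twice-grafted thymic cultures lie wholly to one side of both grafted follicle cultures, as for Hoxa5 at 6.57 to 7.14 against 4.76 and 5.26.

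The promoter windows of 4 of the 7 genes are shown, a pair that was higher and a pair that was lower in thymic cultures, since a regulator (Isl1), a membrane enzyme (Steap2) and both lower genes are the findings a reader may wish to follow upstream. They are RefSeq sequences of rat build GRCr8, 250 bases before to 50 after the gene's start, and 6 of the 7 genes had an entry. The starts are those of the annotation and were not checked, so a window may not hold the promoter in use. Capitals mark TAAT on either strand (TAAT or ATTA), the core read by many homeodomain proteins, the class to which Hoxa5 and Isl1 belong. The windows are Isl1 at chr2:49823393-49823692 (minus strand), Steap2 at chr4:29303131-29303430, Gng10 at chr5:78650917-78651216 and Ypel4 at chr3:90222612-90222911 (all plus strand).
Isl1: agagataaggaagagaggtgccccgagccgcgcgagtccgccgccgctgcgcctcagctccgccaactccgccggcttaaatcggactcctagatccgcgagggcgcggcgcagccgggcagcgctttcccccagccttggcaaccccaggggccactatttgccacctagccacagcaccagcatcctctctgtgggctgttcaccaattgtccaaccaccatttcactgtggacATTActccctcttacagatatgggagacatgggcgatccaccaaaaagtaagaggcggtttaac
Steap2: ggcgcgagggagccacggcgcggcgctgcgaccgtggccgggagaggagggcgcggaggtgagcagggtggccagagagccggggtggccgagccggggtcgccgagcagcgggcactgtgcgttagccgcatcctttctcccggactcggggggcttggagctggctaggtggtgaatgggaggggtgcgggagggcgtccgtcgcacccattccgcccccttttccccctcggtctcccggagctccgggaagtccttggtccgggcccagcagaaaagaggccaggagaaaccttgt
Gng10: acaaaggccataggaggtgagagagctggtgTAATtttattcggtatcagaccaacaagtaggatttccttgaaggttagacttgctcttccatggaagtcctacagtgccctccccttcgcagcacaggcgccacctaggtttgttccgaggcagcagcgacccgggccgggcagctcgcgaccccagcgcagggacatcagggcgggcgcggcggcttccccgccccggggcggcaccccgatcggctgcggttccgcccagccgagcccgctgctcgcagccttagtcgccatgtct
Ypel4: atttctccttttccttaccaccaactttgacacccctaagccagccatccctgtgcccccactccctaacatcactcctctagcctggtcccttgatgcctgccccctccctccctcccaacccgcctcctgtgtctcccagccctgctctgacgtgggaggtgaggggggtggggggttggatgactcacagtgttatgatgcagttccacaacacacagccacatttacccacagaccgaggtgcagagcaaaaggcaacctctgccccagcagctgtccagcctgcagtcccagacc
TAAT occurred 1 time in the Isl1 window and 1 time in that of Gng10, and did not occur in the Steap2 and Ypel4 windows. It occurred 3 times in the window of Atp7a and 2 times in that of RT1-T24-1, which are not printed, while 60.6% of all 33469 promoter windows of this length hold it. GGGCGG, the GC box, searched on both strands and unable to overlap TAAT, occurred 4 times in the Gng10 window, 1 time in that of Steap2 and not in those of Isl1, Ypel4, Atp7a and RT1-T24-1, against 33.1% of all windows with at least 1. The share of G and C was 60.3% for Isl1, 71.3% for Steap2, 63.7% for Gng10 and 59.3% for Ypel4, but 36.7% for Atp7a and 45% for RT1-T24-1, with a median of 51.7% over all windows.

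The transcription factors among the 7 genes were Hoxa5 and Isl1. Hoxa5 (probe set 10862561), a homeobox gene that patterns the neck and upper trunk in mice, had 6.99, 7.06, 6.57 and 7.14 in Clone_287, Clone_347, Clone_194 and Clone_354, against 5.26 in YR219P5_RC and 4.76 in Clone_54. Every thymic culture lay above both follicle cultures by more than 1 log2 unit. The difference was 1.93 ± 0.21 (SE), 3.80-fold, with an adjusted p of 0.00357. Before grafting Hoxa5 averaged 6.25 ± 0.23 in thymic cultures (SD, n = 4) and 4.86 ± 0.04 in follicle cultures (n = 2), a difference of 1.39 ± 0.21 with an adjusted p of 0.007. Hoxa5 thus passed in both states. The comparisons share no culture, but they share 1 fit and its spread, and follicle cultures of both states carry the label YR219P5. They are therefore not independent. The Hoxa5 difference did not pass the test of change (0.53 ± 0.30, adjusted p = 0.610).

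Isl1 (probe set 10821486), a LIM homeodomain factor of pharyngeal endoderm, had 6.06, 6.13, 6.20 and 7.04 in the 4 twice-grafted thymic cultures in the same order, against 4.30 in YR219P5_RC and 4.65 in Clone_54. Clone_354, the bulk culture from 4-month-old rats, was highest and stood 0.84 above the next, and the groups did not overlap. The difference was 1.88 ± 0.29 (SE), with an adjusted p of 0.0393. Before grafting it was 2.78 ± 0.29 (adjusted p = 0.000843), and the change with grafting was -0.90 ± 0.42 (adjusted p = 0.563). Across the thymic states Isl1 averaged 7.14 ± 0.45 ungrafted, 6.64 ± 0.20 grafted once and 6.36 ± 0.46 grafted 2 times (SD, n = 4 each), beside 4.47 ± 0.24 in grafted and 4.36 ± 0.27 in ungrafted follicle cultures (n = 2 each). Differences among the thymic states were not tested here.

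Other homeobox genes of the lists did not pass. Of 11 measured Hox genes of paralogue groups 1 to 6, Hoxa5 alone passed, and of 11 of groups 7 to 13 none did. Only 0.0457% of all probe sets passed, so a list this short without a passing gene is no result about its members. The median difference was -0.11 in the first list and -0.18 in the second, against -0.11 over all probe sets. Without overlap on the higher side were Hoxa5 and Hoxa2 of the first list and Hoxa7 of the second, against 9.32% of all probe sets. On the lower side were Hoxd4 (-0.30 ± 0.11) and Hoxd1 (-0.35 ± 0.14) of the first and Hoxd13 (-0.33 ± 0.15) of the second, against 15.3% of all. All but Hoxa5 were named after their values were seen. Hoxa2 had 6.03, 5.10, 4.42 and 5.41 in the thymic cultures against 4.07 in YR219P5_RC and 3.94 in Clone_54, a difference of 1.24 ± 0.38 (adjusted p = 0.133). Hoxa7 had 6.60, 6.68, 7.07 and 6.95 in the thymic cultures against 5.65 in YR219P5_RC and 5.60 in Clone_54, a difference of 1.20 ± 0.25 (adjusted p = 0.0939). Its ungrafted difference was 0.04 ± 0.25. All 4 twice-grafted thymic cultures thus lay above the follicle cultures for a gene with nearly equal group means before grafting, although the change did not pass (1.16 ± 0.35, adjusted p = 0.468). Hoxa4, which neighbours Hoxa5, overlapped between the groups (0.12 ± 0.11, adjusted p = 0.530). Of 59 other homeobox and T-box factors, Isl1 alone passed, against 0.0457% of all probe sets, with a median of -0.21. Among the 59, 7 were without overlap on the higher side, against 9.32% of all probe sets, and 19 on the lower, against 15.3%.

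The metal-handling genes among the 7 were Steap2 and Atp7a. Steap2 (probe set 10853401), a membrane metalloreductase for iron and copper, had 8.81, 8.75, 8.60 and 8.50 in the twice-grafted thymic cultures, against 6.71 in YR219P5_RC and 7.13 in Clone_54. The thymic values spanned 0.31 and all lay above the follicle values. The difference was 1.74 ± 0.27 (SE), 3.35-fold, with an adjusted p of 0.0373, and before grafting it was 1.33 ± 0.27 (adjusted p = 0.0286). Steap2 averaged 7.60 ± 0.16 in ungrafted, 8.76 ± 0.56 in once-grafted and 8.66 ± 0.14 in twice-grafted thymic cultures, beside 6.92 ± 0.30 in grafted and 6.28 ± 0.20 in ungrafted follicle cultures. Grafted means were thus higher than ungrafted means in both tissues, and the change in the tissue difference did not pass (0.42 ± 0.38, adjusted p = 0.747).

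Steap1, the neighbouring family member, was named after its values were seen. It had 8.12, 8.18, 8.20 and 8.51 in the thymic cultures, against 7.03 in YR219P5_RC and 6.38 in Clone_54. The groups did not overlap, and the difference of 1.55 ± 0.34 missed the threshold (adjusted p = 0.0969). Before grafting the Steap1 difference was 3.41 ± 0.34 (adjusted p = 0.000556). Steap3 (-0.17 ± 0.18) and Steap4 (-0.31 ± 0.47) overlapped between the groups.

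Atp7a (probe set 10934585), a copper-exporting ATPase, had 7.53, 7.52, 7.44 and 7.50 in the thymic cultures, against 6.42 in YR219P5_RC and 6.82 in Clone_54. The thymic values lay within 0.09 of each other. The difference was 0.88 ± 0.13 (adjusted p = 0.0294), the smallest in size of the 7. It was 0.40 ± 0.13 before grafting (adjusted p = 0.168). The change of 0.48 ± 0.18 did not pass (adjusted p = 0.533). Atp7b, the related copper pump, overlapped between the groups (0.11 ± 0.29). Of 31 measured Steap and metal-handling genes, on 40 probe sets, Steap2 and Atp7a passed as higher, against 0.0326% of all probe sets. None passed as lower, against 0.0131% of all, and the median was -0.09. Without overlap were 7 of the 40 on the higher side, against 9.32% of all, and 2 on the lower, against 15.3%.

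RT1-T24-1 (probe set 10827835), a non-classical class I gene of the rat major histocompatibility complex, had 6.82, 6.72, 6.59 and 6.82 in the thymic cultures, against 5.58 in YR219P5_RC and 5.50 in Clone_54. The groups were separated by over 1 log2 unit, with a difference of 1.19 ± 0.13 and an adjusted p of 0.00357. The ungrafted difference was nearly as large, 1.03 ± 0.13 (adjusted p = 0.00402). RT1 genes are close copies of each other, so signal may be shared between probe sets, and the assignment to RT1-T24-1 is uncertain. The other RT1 probe sets of the 37 on the array lay between -0.79 and 0.52, and none of them passed. RT1-T24-4 had 2 probe sets, at 0.21 and -0.10. Of 17 measured class I presentation genes RT1-T24-1 alone passed, against 0.0457% of all probe sets. The list's median was 0.01. Without overlap were 3 of its 19 probe sets on the higher side, against 9.32% of all, and 7 on the lower, against 15.3%.

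Gng10 (probe set 10869249), the gamma-10 subunit of heterotrimeric G proteins, was lower in thymic cultures. It had 8.70, 8.35, 8.29 and 8.33 in Clone_287, Clone_347, Clone_194 and Clone_354, against 9.29 in YR219P5_RC and 9.39 in Clone_54. Clone_287 lay nearest the follicle cultures and still 0.59 below the lower of them. The difference was -0.93 ± 0.11 (adjusted p = 0.00534). Before grafting it was -0.25 ± 0.11 (adjusted p = 0.337), and the change was -0.67 ± 0.16 (unadjusted p = 0.000842, adjusted p = 0.361).

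Ypel4 (probe set 10837337), a yippee-like gene of a small zinc-binding family, had 5.21, 5.05, 5.25 and 5.34 in the thymic cultures, against 6.21 in YR219P5_RC and 6.72 in Clone_54. All thymic values lay within 0.29 of each other and below both follicle values. The difference was -1.25 ± 0.18 (adjusted p = 0.0240). The thymic means hardly moved across states, at 5.23 ± 0.10 ungrafted, 5.19 ± 0.16 grafted once and 5.21 ± 0.12 grafted 2 times, while the follicle means were 6.46 ± 0.36 grafted and 5.78 ± 0.46 ungrafted. The change did not pass (-0.70 ± 0.25, adjusted p = 0.524). Ypel2, Ypel3 and Ypel5 had higher thymic means, by 0.59 ± 0.51, 0.43 ± 0.45 and 0.23 ± 0.41, and overlapped.

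Just outside the threshold were B4galnt1, a ganglioside synthase (0.91 ± 0.15, adjusted p = 0.0511), Lrp10, a lipoprotein receptor family member (0.62 ± 0.10, 0.0545), Npc1, a lysosomal cholesterol carrier (0.88 ± 0.15, 0.0679), Serpinb1a, a protease inhibitor (1.19 ± 0.21, 0.0679), and Ptgs1. Some far larger differences missed it, and in these the thymic cultures varied widely. Ptgs1, cyclooxygenase 1, had 7.996, 9.50, 6.95 and 9.81 in the thymic cultures against 5.21 in YR219P5_RC and 4.96 in Clone_54, a difference of 3.48 ± 0.61 (adjusted p = 0.0725). Krt8, a keratin of simple and thymic epithelium, had 9.21, 10.31, 7.95 and 9.26 against 6.75 in YR219P5_RC and 6.69 in Clone_54. The groups of both genes did not overlap, and Clone_194 was the lowest thymic culture for each. The Krt8 difference was 2.46 ± 0.66 (adjusted p = 0.117) on this probe set and 3.51 ± 0.78 (adjusted p = 0.0969) on the other, and 4.38 ± 0.66 (adjusted p = 0.007) before grafting. Krt13, a keratin of mucosal epithelia, had 10.21, 11.44, 9.36 and 8.996 against 6.51 in YR219P5_RC and 7.54 in Clone_54 (2.98 ± 0.77, adjusted p = 0.115). On the lower side, Lrat, which esterifies retinol, had 7.79 in Clone_287 but 3.85, 5.41 and 4.68 in Clone_347, Clone_194 and Clone_354, against 8.53 in YR219P5_RC and 8.04 in Clone_54. Its difference was -2.85 ± 0.74 (adjusted p = 0.115), and Clone_287 sat within 0.25 of Clone_54. Ptgs1, Krt13 and Lrat were named after their values were seen.

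**Figure D2:**
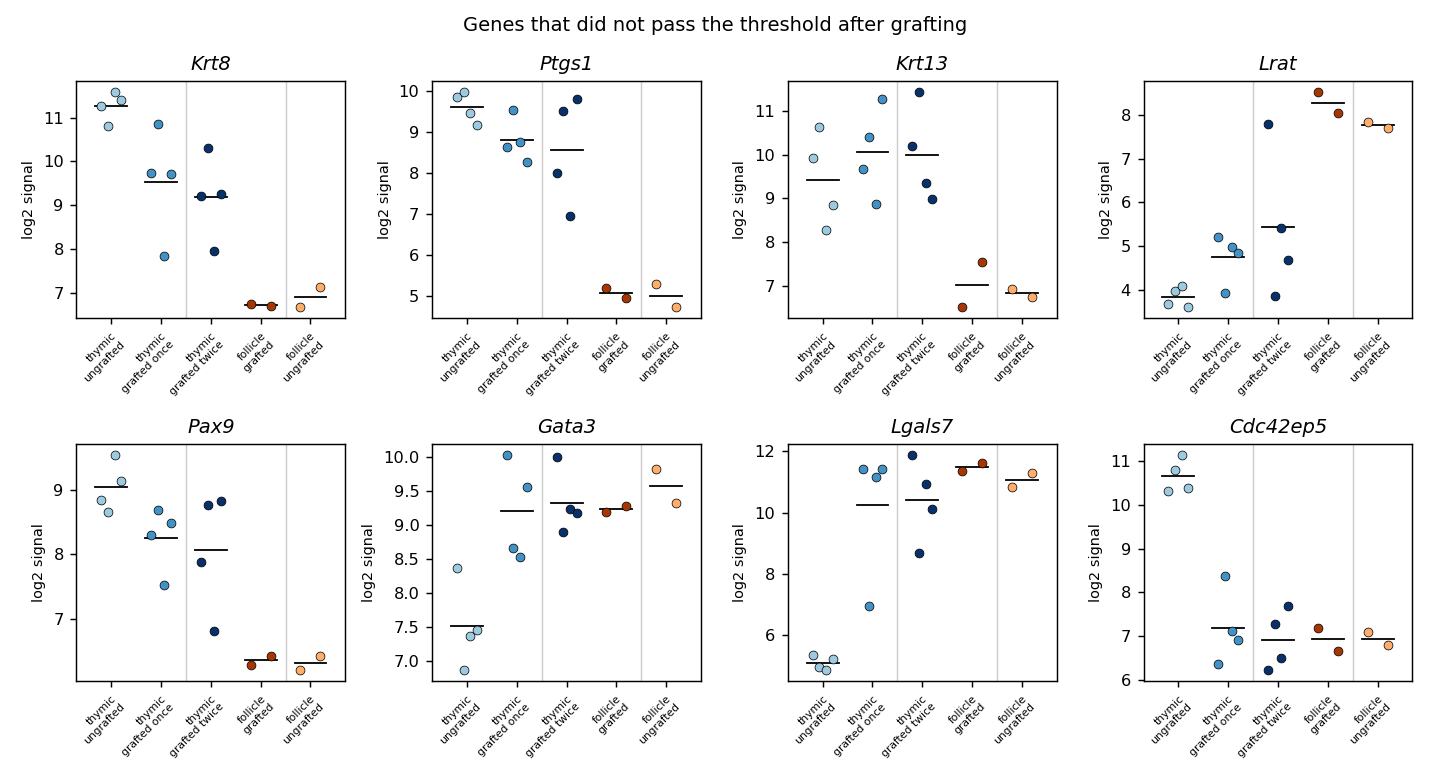
Log2 signal of 8 genes that did not pass the threshold, drawn as in the plot of the 7 genes (1 point per culture, line at the group mean, probe set with the highest mean). Krt8 ran from 7.95 to 10.31 in the twice-grafted thymic cultures against 6.69 and 6.75 in the grafted follicle cultures, whereas Cdc42ep5, at 6.24 to 7.69, overlapped with 6.68 and 7.20.

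The remaining thymic regulators did not pass. Pax9 had 7.87, 8.76, 6.81 and 8.82 in the thymic cultures, against 6.28 in YR219P5_RC and 6.43 in Clone_54, a difference of 1.71 ± 0.47 (adjusted p = 0.120) without overlap. Pax1 differed by -0.22 ± 0.41 (95% interval -1.10 to 0.67). Foxn1 had 6.005, 5.48, 5.70 and 5.90 in the thymic cultures against 6.15 in YR219P5_RC and 6.05 in Clone_54. All 4 thymic values of Foxn1 were below both follicle values, by little (-0.33 ± 0.20, adjusted p = 0.353). Of 8 measured identity genes Isl1 alone passed, against 0.0457% of all probe sets, with a list median of 0.32. None of 18 thymic function genes passed, and their median was -0.12. Krt18, the partner of Krt8, differed by 0.52 ± 0.95 on its strongest probe set and overlapped on all 3. Cd74, the class II invariant chain, differed by -0.22 ± 0.64. Of 12 class II presentation genes none passed. With 0.0457% of all probe sets passing, a list this short without a passing gene is no result about its members.

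Follicle and basal epithelial genes also stayed short of the threshold. With 0.0457% of all probe sets passing, lists of this size without a passing gene are no result about their members. Lhx2, a follicle stem cell factor, had 7.64, 5.84, 6.60 and 6.13 in the thymic cultures against 7.13 in YR219P5_RC and 7.38 in Clone_54. Clone_287 was above both follicle cultures and the other thymic cultures were below them (-0.70 ± 0.49, adjusted p = 0.417). Krt15, a basal and bulge keratin, differed by 1.10 ± 0.92, Tp63 by 0.23 ± 0.22 and Krt14 by -0.16 ± 0.10, all with overlap. Of 25 hair shaft and inner root sheath probe sets, none passed, and the median was -0.23. Those without overlap were 8 on the lower side, against 15.3% of all probe sets, and 1 on the higher, against 9.32%. The basal keratinocyte and hemidesmosome list had a median of 0.36 over 13 probe sets, and none passed. Of the 13, 2 were without overlap on the higher side (9.32% of all probe sets), Itga6 (0.51 ± 0.16) and Itgb4 (0.66 ± 0.23), which form the integrin of hemidesmosomes. On the lower side 1 was (15.3% of all), Krt17, a keratin of the follicle's outer layers (-0.46 ± 0.19). All 3 were named after their values were seen. The cell cycle list had a median of -0.30 over 34 probe sets, with 10 of 34 without overlap on the lower side against 15.3% of all probe sets. Among them Pcna, the replication clamp, had 10.10, 9.47, 10.27 and 10.25 in the thymic cultures, against 11.11 in YR219P5_RC and 10.51 in Clone_54 (-0.79 ± 0.33, adjusted p = 0.206), also named after its values were seen. No member of the cell cycle list passed.

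The size of the tissue difference in the grafted and ungrafted cultures depended on the measure and on single cultures. The threshold was passed by 7 probe sets after grafting and by 238 (1.55%) before it, 148 higher and 90 lower in thymic cultures, while an unadjusted p under 0.05 was reached by 3217 after and 2066 before. Without Clone_287 the counts past the threshold were 450 after and 227 before, and without the ungrafted follicle culture YR219P5_Bulk_V they were 6 and 18. In total 279 probe sets differed by more than 1 log2 unit after grafting, against 534 before. Leaving out 1 of the 6 compared cultures gave counts of 185 to 536 after grafting, against 534 before. Only without Clone_54 was the count after grafting the larger, at 536. Leaving out any other culture could not change the 279. Leaving out 1 ungrafted culture gave 502 to 813 before grafting, with 813 without YR219P5cl7. Leaving out a once-grafted thymic culture could change neither count. Of the 7 probe sets that passed after grafting 4 had also passed before it, Hoxa5, Isl1, Steap2 and RT1-T24-1, which is 57.1% of the 7 and 1.68% of the 238. Of those 238, 192 had the same sign after grafting, 120 of the 148 higher and 72 of the 90 lower. The median over all probe sets after grafting was -0.11, so a negative sign was the more common. A same-sign share over all probe sets was not computed. The 238 had a median absolute difference of 0.38 after and 1.17 before grafting. They were chosen on their ungrafted values, so a smaller later value is partly fixed by that choice. The difference of differences, the test of that change, passed in 0 probe sets (0%), with 1351 at an unadjusted p under 0.05. It passed in 28 without Clone_287, in 85 without YR219P5cl7 and in 1 without Clone_218.

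**Figure D3:**
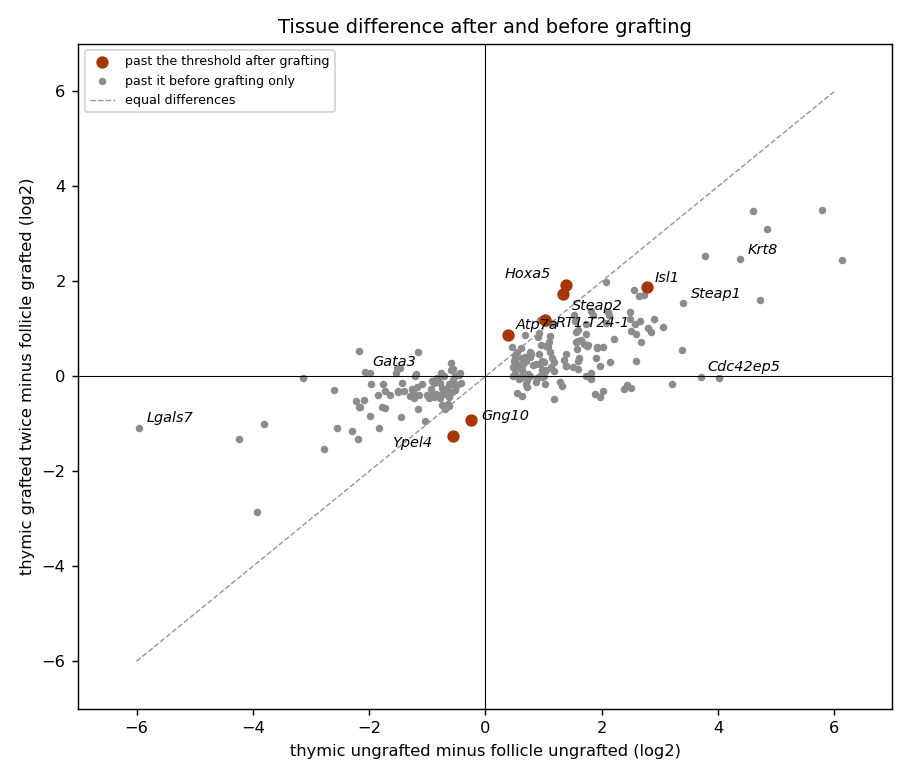
Thymic minus follicle difference in log2 after grafting (vertical, twice-grafted thymic against grafted follicle) and before grafting (horizontal), for every probe set past the threshold in either state, with the 7 that passed after grafting in large points and equal differences on the dashed line. Gng10, Ypel4, Atp7a, Hoxa5, Steap2 and RT1-T24-1 were larger in size after grafting, while Lgals7, at -1.08 after and -5.96 before, was smaller. Each point was chosen on the state in which it passed, so a larger value in that state is partly fixed by that choice. No change between the states passed the threshold.

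Several strongly thymic or strongly follicle genes had closer group means after grafting. Cdc42ep5, an effector of the GTPase Cdc42, had 6.24, 7.28, 6.50 and 7.69 in the thymic cultures against 7.20 in YR219P5_RC and 6.68 in Clone_54, a difference of -0.01 ± 0.48 (95% interval -1.05 to 1.03), and 3.70 ± 0.48 before grafting (adjusted p = 0.00402). Lgals7, galectin 7 of stratified epithelium, had 11.90, 8.67, 10.94 and 10.13 against 11.37 in YR219P5_RC and 11.61 in Clone_54, a difference of -1.08 ± 1.06, and -5.96 ± 1.06 before grafting (adjusted p = 0.0160). Gata3, a factor of thymus and hair sheath, differed by 0.10 ± 0.45 after and by -2.06 ± 0.45 before grafting (adjusted p = 0.0395). For all of these the thymic and follicle values overlapped after grafting. The 5 smallest p-values for the change belonged to Rin2 (1.68 ± 0.25), Pcyt1b (1.43 ± 0.23), Lgals9 (-1.53 ± 0.25), Gja1 (1.62 ± 0.27) and Cdc42ep5 (-3.71 ± 0.68), with adjusted p of 0.142 for the first 3, 0.150 for Gja1 and 0.235 for Cdc42ep5. Lgals9, galectin 9, had a difference of opposite sign in the 2 states. It was at 6.19, 6.11, 6.48 and 6.18 in the thymic cultures, against 7.42 in YR219P5_RC and 7.03 in Clone_54 (-0.98 ± 0.18, adjusted p = 0.0730). Before grafting its difference was 0.55 ± 0.18. Another probe set of Lgals9 overlapped between the groups (-0.28 ± 0.14). Gja1, connexin 43, had nearly equal values after grafting, 11.64 to 11.79 in the thymic cultures and 11.51 and 11.72 in the follicle cultures.

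The 6 cultures did not sort by tissue. The root mean square log2 difference over all tested probe sets was 0.352 to 0.640 between a thymic and a follicle culture, 0.364 to 0.512 between thymic cultures, and 0.336 between the follicle cultures. Among the 6, Clone_287 lay nearest to the follicle culture Clone_54, at 0.352, against 0.404 from its nearest thymic culture. Clone_194 lay at 0.352 from Clone_54 and at 0.364 from Clone_354. Clone_347 and Clone_354 had a thymic culture as nearest. The nearest cultures were the same with arrays centred, with array 2 of YR219P5_RC alone and with probe sets of a mean level of at least 5. Clone_347 was the most distant thymic culture, at 0.640 from YR219P5_RC, and both E16 clones, Clone_287 and Clone_347, were 0.496 apart. Against once-grafted thymic cultures, Clone_287 was 0.256 from the E16 clone Clone_217, Clone_194 was 0.258 from the P1 clone Clone_57, and Clone_347 was 0.368 from the E16 clone Clone_218.

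**Figure D4:**
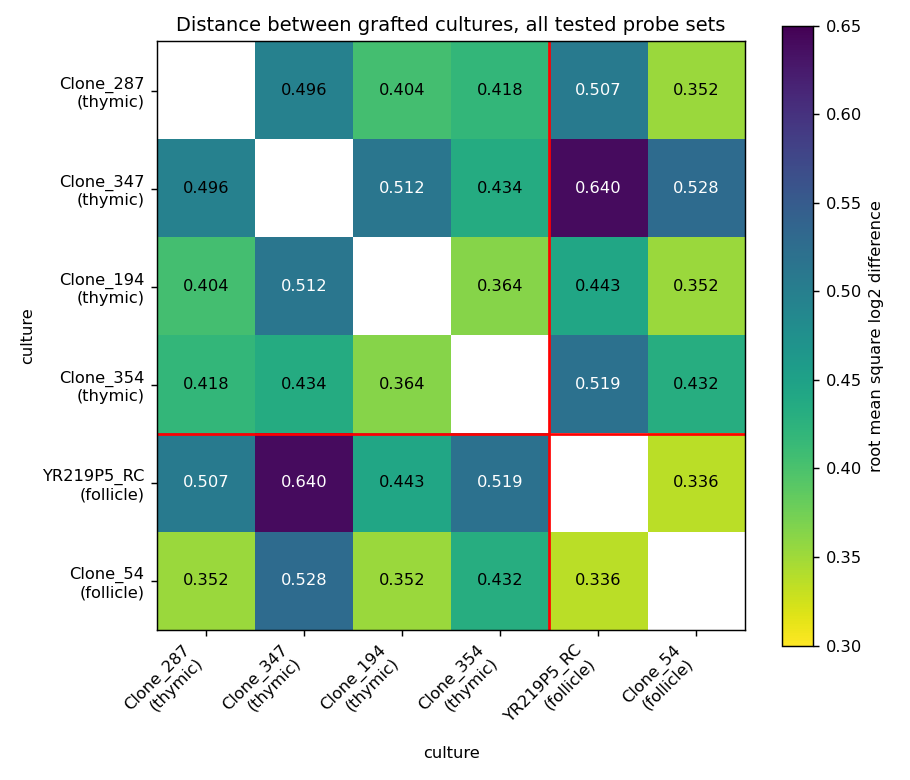
Root mean square log2 difference over 15316 probe sets for each pair of the 6 cultures, with the 4 thymic cultures above and left of the red lines and the 2 follicle cultures below and right. Clone_287 and Clone_194 are each at 0.352 from the follicle culture Clone_54, closer than to any of the other thymic cultures.

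The number of genes past the threshold rested on single cultures. Without Clone_287 it was 450, 129 higher and 321 lower, and included all 7. Without Clone_347 it was 15, without Clone_194 4, without Clone_354 3, without YR219P5_RC 1 and without Clone_54 0, at which point 3840 probe sets had an unadjusted p under 0.05. Leaving out the ungrafted culture PRP4mo_Cl09, which enters the shared spread, gave 3. Leaving out any culture outside the 6 compared moves that spread alone and leaves the grafted differences as they were. When each of the 4 twice-grafted thymic cultures was left out in turn, Hoxa5, RT1-T24-1 and Gng10 always passed. Atp7a, Ypel4 and Isl1 then passed without Clone_287 or Clone_347 only, and Steap2 without Clone_287 only. Over the 16 fits that each left out 1 culture, Hoxa5 passed in 15, RT1-T24-1 and Gng10 in 14, Atp7a and Ypel4 in 11, Isl1 in 6 and Steap2 in 5. Isl1 and Steap2 lost the call without any of Clone_194, Clone_354, YR219P5_RC and Clone_54, among others, while their differences stayed at 1.66 to 2.06 and 1.53 to 1.95. With only the 6 compared cultures in the fit, or the clones alone, 0 probe sets passed, with 2017 and 527 at an unadjusted p under 0.05.

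Of the 321 probe sets lower without Clone_287, 43 belong to a list of genes for the mitochondrial respiratory chain and the ATP synthase. This list, called respiratory chain here, was chosen after these calls were seen and so is given without a test. Its 86 probe sets, for 75 genes, averaged 9.55 in Clone_287 and 8.84 to 9.03 in Clone_347, Clone_194 and Clone_354, against 9.67 in YR219P5_RC and 9.42 in Clone_54. Ungrafted thymic cultures lay at 9.40 to 9.51, once-grafted ones at 9.34 to 9.45 and ungrafted follicle cultures at 9.38 and 9.43. Clone_347, Clone_194 and Clone_354 were thus the lowest of all 16 cultures, and Clone_287 lay among the rest. Ndufb6, a subunit of complex I, had 9.89 in Clone_287 and 7.46, 8.18 and 8.23 in Clone_347, Clone_194 and Clone_354, against 9.90 in YR219P5_RC and 9.64 in Clone_54. Cox8a, a subunit of cytochrome oxidase, had 11.34, 9.71, 9.75 and 9.74 in the thymic cultures in that order, against 11.35 in YR219P5_RC and 10.77 in Clone_54. With all cultures 0 of the 86 passed, against 0.0457% of all probe sets, and the median was -0.42. Those without overlap were 14 on the lower side, close to the 15.3% of all probe sets, and 1 on the higher, against 9.32% of all. Without Clone_287, 43 of the 86 were lower past the threshold, against 321 of all 15316 probe sets (2.1%), and none was higher, against 129 of all (0.842%). Clone_287 was the highest thymic culture for 78 of the 86, 90.7%, against 23.1% of all probe sets.

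**Figure D5:**
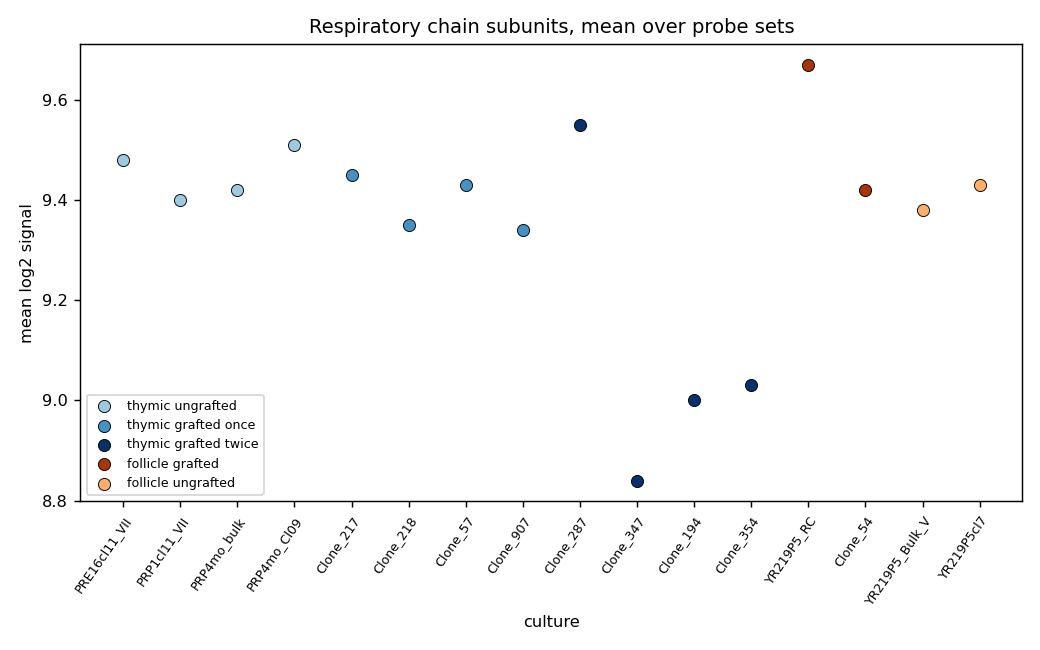
Mean log2 signal of 86 probe sets for respiratory chain and ATP synthase genes in each of the 16 cultures, coloured by group, on a vertical axis that does not start at 0. Clone_347, Clone_194 and Clone_354, at 8.84 to 9.03, lie below Clone_287 at 9.55 and below every culture of the other groups.

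Ribosomal protein genes, chosen in the same way, were also highest in Clone_287 among the twice-grafted thymic cultures. Their 259 probe sets, for 71 genes, averaged 11.75 in Clone_287 and 11.37 to 11.50 in the other twice-grafted thymic cultures, against 11.60 in YR219P5_RC and 11.59 in Clone_54. Clone_287 was the highest thymic culture for 204 of the 259, 78.8%, against 23.1% of all probe sets. With all cultures 0 of the 259 passed, against 0.0457% of all probe sets, and the median was -0.07. Without overlap were 13 on the lower side, against 15.3% of all probe sets, and 20 on the higher, against 9.32%. Without Clone_287, 39 were lower past the threshold, against 2.1% of all probe sets, and none higher, against 0.842%. Several of the 39 are repeat probe sets of 1 gene, as for Rps20, Rpl31 and Rpl38, so 39 is not a count of genes. The median was -0.12 against -0.10 over all probe sets. The respiratory chain median in that fit was -0.56. The difference between the lists was not tested. RNA quality, passage and growth state of the cultures are not given in the labels, and their part in the values of both lists was not tested.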

How the data were processed

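The table deposited by the authors holds log2 signals per probe set, summarised by RMA with Affymetrix Expression Console according to the submitters' processing notes, which give no version. The log2 scale was inferred from the range of 1.526 to 14.03. The table held 29215 probe sets on 32 arrays, of which 15316 had 1 gene symbol (14511 genes, 528 with more than 1 probe set), 317 had several and 13582 had none listed. The 15316 were tested without a filter, and a gene with several probe sets was named by the strongest.

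Both arrays of a culture were averaged, since they share its name, and groups came from the labels. The moderated test of limma 3.58.1 (R 4.3.3, lmFit and eBayes) was run on 16 culture means, with 1 coefficient for each of the 5 groups and a common spread. P-values were adjusted by Benjamini-Hochberg over all 15316 probe sets, with a threshold of 0.05. The fit was tested on simulated data. Errors are SE for differences and SD for levels. The number of arrays and cultures limits the precision (median SE of the difference 0.155).

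The cultures compared, the 30 gene lists, the panel of genes and the rule for named genes were chosen with earlier results of these data known. The rule took the 12 largest called differences in each direction without overlap, up to 4 called members of a list, the panel, and the 5 smallest p-values for the change. Other named genes were chosen after their values were seen. Alternatives were another scaling, arrays as units, other sets of cultures, donor stage as a term, a level filter, 1 probe set per gene and an intensity trend. Combinations without Clone_287 were added after the data were seen.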

Additional observations from a re-analysis of the deposited data

Results flagged for a closer look

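In 72 groups of 4 thymic cultures, for 24 named genes, 5 had a highest or lowest culture whose gap to the next, as a share of the group's whole range, was above Dixon's critical value. Chance gives about 1 in 20 groups. In the twice-grafted thymic cultures these were Isl1, with Clone_354 highest at 7.04 (share 0.859), and Gng10, with Clone_287 highest at 8.70 (share 0.855). In the once-grafted thymic cultures Lgals7 was lowest in Clone_218 (share 0.944). In the ungrafted thymic cultures PRE16cl11_VII was highest for Atp7a (share 0.915) and lowest for Pcyt1b (share 0.883).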

How the results depend on the processing

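The count between twice-grafted thymic and grafted follicle cultures was 7, and 6 to 8 with centred arrays, a level filter, 1 probe set per gene or an intensity trend. It was 721 with arrays as units and 670 with array number added as a replicate block. It was 0 with the compared cultures or the clones alone, 28 with donor stage as a term, and 14 using array 2 of YR219P5_RC alone. Without Clone_287 it was 542 with that array and 348 with centred arrays. Leaving out 1 culture gave 0 to 450, and 0 to 85 for the change with grafting. That count, 0, was 138 with arrays as units and 118 with the block. The ungrafted count, 238, was 977 and 944 in those fits, 4 in clones, 388 with donor stage and 18 to 375 without 1 culture. Without the follicle culture YR219P5_Bulk_V it was 18 and without YR219P5cl7 375, which also gave 85 for the change. The blocked values are no paired result: over 120 pairs of cultures, same-numbered arrays correlated at -0.635 to 0.574 in their deviations, with a median of -0.01, and 23 pairs above 0.1. The larger array counts take both arrays of a culture as samples.

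Some differences after grafting changed sign. Without 1 culture Gata3 lay at -0.13 to 0.24, Krt18 at -0.19 to 0.90, Cd74 at -0.60 to 0.051 and Cdc42ep5 at -0.27 to 0.25. Without Clone_287 and with array 2 of YR219P5_RC alone, Gata3 was at -0.107, Cd74 at 0.054 and Cdc42ep5 at 0.321, and with centred arrays at -0.091, 0.088 and 0.257 in that order. Tp63 was at -0.058 in clones. Cdc42ep5 was at 0.021 with centred arrays, 0.007 with donor stage and 0.091 with array 2 of YR219P5_RC alone. The cause was not tested. Of all values for single genes, 600 kept their side and direction, 51 lost the threshold, 22 passed it and 16 changed sign.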

Other observations

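Cd68, a lysosomal protein of macrophages that other cells also make, was at 8.78 in Clone_347 and 6.70, 5.67 and 6.01 in Clone_287, Clone_194 and Clone_354, against 5.43 in YR219P5_RC and 5.35 in Clone_54. The leukocyte genes Ptprc and Itgam were below 4 in Clone_347. Vim, an intermediate filament of mesenchyme and of cultured epithelium, was at 10.01 in Clone_287 and 10.50 in Clone_194, but at 6.85 in Clone_347 and 7.40 in Clone_354, against 11.38 in YR219P5_RC and 10.35 in Clone_54. For Vim, Clone_287 and Clone_194 were thus on the follicle side of Clone_347 and Clone_354. These genes were named after their values were seen, and none passed the threshold.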
